A study of Mus musculus with 258 samples.

Results

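Chromatin loops around 3 genes of B cell biology, Nedd9 on chromosome 13 and the neighbours Btla and Cd200 on chromosome 16, were described in resting and in activated mouse B cells. The loops were chosen by position: every loop with the start of an anchor between 40.9 and 42.1 Mb of chromosome 13 (the Nedd9 region) or between 44.7 and 45.9 Mb of chromosome 16 (the Btla-Cd200 region), in the mm9 build. The regions themselves were selected on measured values of these same loop lists, because each holds a loop whose ratio of observed to expected contacts differed widely between the states. Those ratios are therefore given as descriptions, without a test. The rule found 18 loops of 6181 in all: 3 of the 1866 loops called in resting cells and 15 of the 4315 called in activated cells. The Nedd9 region held 2 resting and 9 activated loops, and the Btla-Cd200 region 1 and 6.

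The study mapped chromatin of mouse B cells at rest and after activation. All cells used here came from spleens of wild-type (WT) C57BL6/J mice 6 to 8 weeks old and were purified by negative selection. Resting cells (0 h) were untreated, and activated cells had spent 72 h with lipopolysaccharide (LPS, 50 μg/mL), interleukin 4 (IL-4, 2.5 ng/mL) and 0.5 μg/mL of an antibody against CD180, also called RP105. The labels give 8 in situ Hi-C libraries to the resting and 26 to the activated group, but the deposited lists hold 1 pooled result per state. The activated list does not name its time, and was taken as 72 h because this is the one activated WT map without an inhibitor in the deposited description. With 1 list per state there are no replicates, and the 95% intervals below cover counting error alone. No expression values were used, so the cell type was not checked against markers.

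Hi-C counts ligations between stretches of DNA that lay close to each other in crosslinked nuclei. In such a map a loop is a spot where both anchors meet more often than neighbouring stretches do. Many loops in mammalian cells form where cohesin extrudes chromatin until it meets bound CTCF, and others join promoters to distant regulatory elements. The observed count at a loop was set against 4 expected counts from its neighbourhood: a ring around the pixel (donut), the corner facing the diagonal (lower left), and a horizontal and a vertical strip. Observed over donut-expected count is called strength here.

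Nedd9, also known as HEF1 or Cas-L, is a docking protein of the Cas family that links integrin and antigen receptor signals to cell adhesion and migration of lymphocytes. Btla (B and T lymphocyte attenuator) is an inhibitory receptor of the immunoglobulin superfamily that binds the herpesvirus entry mediator Tnfrsf14. Cd200 is a membrane glycoprotein whose receptor Cd200r1 restrains myeloid cells. No annotation of the mm9 build was used here. The choice of regions places Nedd9 at about 41.40 to 41.58 Mb, Btla at about 45.2 Mb and Cd200 at about 45.4 Mb, and these positions were not checked. In RefSeq's gene order (GRCm38.p6), Nedd9 follows Smim13 and is followed by Tmem170b and Adtrp. On chromosome 16 the order of protein-coding genes was Cd200r1, Cd200r4, Cd200r2, Cd200r3, Ccdc80, Slc35a5, Atg3, Btla and Cd200. The genes with Cd200r names thus lie on the same side of Cd200 as Btla.

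The promoters of the 3 genes are shown as regulatory sequence of the genes for which the loops are named. They come from RefSeq (GRCm38.p6), a different build from that of the loops, and no position was converted. A single start per gene was used, and other starts of these genes were not examined. Each runs from 250 bases before to 50 after the gene's start, 5′ to 3′ on the gene's strand: chr13:41358952-41359251 (minus strand) for Nedd9, chr16:45224087-45224386 (plus strand) for Btla and chr16:45409004-45409303 (minus strand) for Cd200. Capitals mark matches on either strand to the E-box CACGTG, the site class bound by Myc, and to the GC box GGGCGG.
Nedd9: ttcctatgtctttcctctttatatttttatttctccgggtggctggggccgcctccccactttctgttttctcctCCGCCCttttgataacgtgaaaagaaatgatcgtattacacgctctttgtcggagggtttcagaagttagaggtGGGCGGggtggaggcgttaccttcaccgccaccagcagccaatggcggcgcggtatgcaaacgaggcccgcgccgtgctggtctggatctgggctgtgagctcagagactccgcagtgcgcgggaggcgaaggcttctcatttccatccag
Btla: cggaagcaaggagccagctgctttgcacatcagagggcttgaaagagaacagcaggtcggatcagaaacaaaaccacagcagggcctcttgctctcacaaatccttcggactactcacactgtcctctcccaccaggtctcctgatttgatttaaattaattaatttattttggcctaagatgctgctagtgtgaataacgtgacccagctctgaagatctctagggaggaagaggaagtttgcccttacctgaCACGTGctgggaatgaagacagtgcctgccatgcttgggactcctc
Cd200: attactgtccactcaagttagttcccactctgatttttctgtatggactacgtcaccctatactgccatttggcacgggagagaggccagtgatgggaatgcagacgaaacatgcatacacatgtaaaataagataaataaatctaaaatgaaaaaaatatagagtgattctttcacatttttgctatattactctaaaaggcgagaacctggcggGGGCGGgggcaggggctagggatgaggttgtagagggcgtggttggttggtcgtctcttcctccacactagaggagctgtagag

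The 3 promoters differed in composition. The Nedd9 promoter held 21 CpG dinucleotides against a median of 7 over 32851 promoters of that length, and 2 GC boxes. The Cd200 promoter held 8 CpG and 1 GC box. The Btla promoter held 5 CpG and no GC box, and it was the one with an E-box, which began 4 bases after the gene's first base. Among all 32851 promoters 7.15% held the E-box and 35.7% the GC box. A match describes the letters and says nothing of binding. Within GRCm38.p6 the starts of Btla and Cd200 lay 185 kb apart, on opposite strands.

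One resting loop in each region had a partner in the activated list within 20 kb at both anchors, which is 4 paired loops, and the other 14 loops had none. Of these, 13 were activated loops. Lack of a partner was common in the whole lists too. The 1866 resting and 4315 activated loops gave 1212 pairs, which left 3103 activated loops unpaired. In the Nedd9 region the paired loop ran from 41380001 to 41670000 in resting cells and from 41375001 to 41670000 in activated cells, so the pixels lay 5 kb apart at the left anchor and at the same place on the right. Its left anchor lay just below the lower end of Nedd9 as placed above, and its right anchor beyond the upper end, so that the loop spanned the gene. In the Btla-Cd200 region the paired loop ran from 45195001 to 45415000 in resting cells and from 45215001 to 45410000 in activated cells. These pixels lay 20 kb apart on the left and 5 kb on the right, and the pair is 1 of 47 among 1212 (3.88%) that lay over 20 kb apart in sum. The centres of the merged pixels were closer than the pixels themselves, 6.67 kb apart on the left and at the same position on the right. This loop was 215 kb long in resting and 190 kb in activated cells, and its ends lay at about the positions given for Btla and Cd200.

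**Figure D1:**
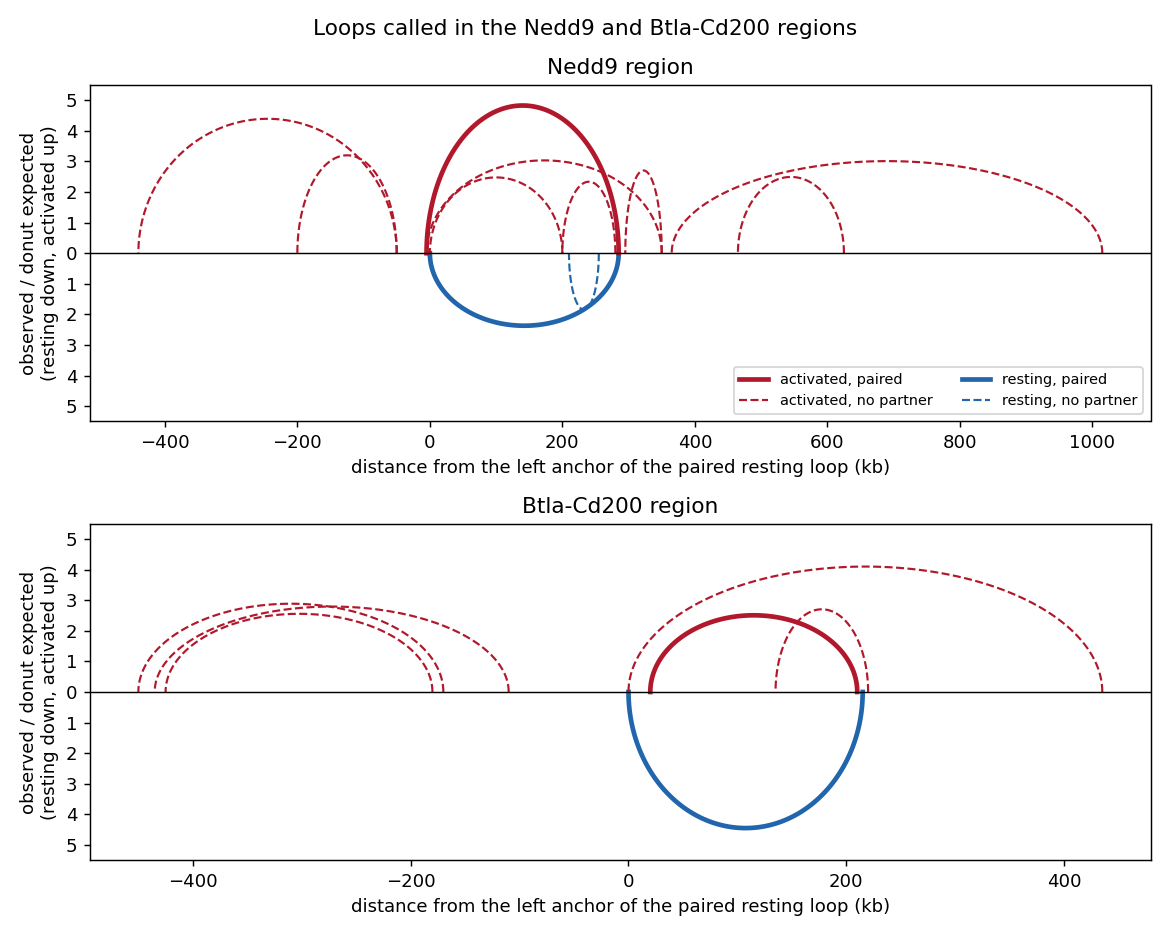
Loops of the Nedd9 region (top) and the Btla-Cd200 region (bottom), as arcs between their anchors; the x axis is the distance from the left anchor of the paired resting loop (kb) and the height of an arc is its observed over donut-expected count, drawn upward for activated and downward for resting cells. Thick arcs are the paired loops, dashed arcs have no partner; 13 activated arcs and 1 resting arc are dashed.

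The Nedd9 loop was stronger in activated cells against all 4 backgrounds. It rested on 60 observed contacts in resting cells (exact Poisson interval 45.8 to 77.2) and 139 in activated cells (117 to 164), counts not scaled for depth. The donut background predicted 25.3 contacts in resting cells and 28.8 in activated cells. The strength was thus 2.37 in resting and 4.83 in activated cells, a log2 ratio of 1.03 (counting SE 0.22, interval 0.58 to 1.49, expected counts taken as fixed). Its place in the lists differed likewise: 32.9% of resting loops and 93.8% of activated loops were weaker. The log2 ratio was 1.19 against the lower left (0.74 to 1.65), 0.95 against the horizontal (0.51 to 1.41) and 0.83 against the vertical background (0.38 to 1.29). Of the 1177 pairs outside chromosome Y, 2 had a higher log2 ratio with each of the donut, lower left and horizontal backgrounds, and 6 with the vertical one. Over all 1212 pairs these counts were 4, 3, 5 and 7.

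The Btla-Cd200 loop was weaker in activated cells by each background, with wider counting error. It rested on 53 observed contacts in resting cells (39.7 to 69.3) and 60 in activated cells (45.8 to 77.2), raw counts that lay close together. The expected counts differed more: the donut background gave 11.9 in resting and 23.9 in activated cells. Strength was 4.45 in resting and 2.51 in activated cells, a log2 ratio of -0.83 (counting SE 0.27, interval -1.39 to -0.27). In resting cells 94.96% of loops were weaker than this one, in activated cells 32.2%. Against the vertical background the log2 ratio was -0.85 (-1.41 to -0.29), against the horizontal one -0.57 (-1.13 to -0.010) and against the lower left one -0.56 (-1.12 to 0.0034), whose interval includes 0. Outside chromosome Y 1 pair had a lower log2 ratio with the donut background and 2 with the vertical one, but 32 with the horizontal and 49 with the lower left one. Over all 1212 pairs these counts were 4, 6, 39 and 60.

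**Figure D2:**
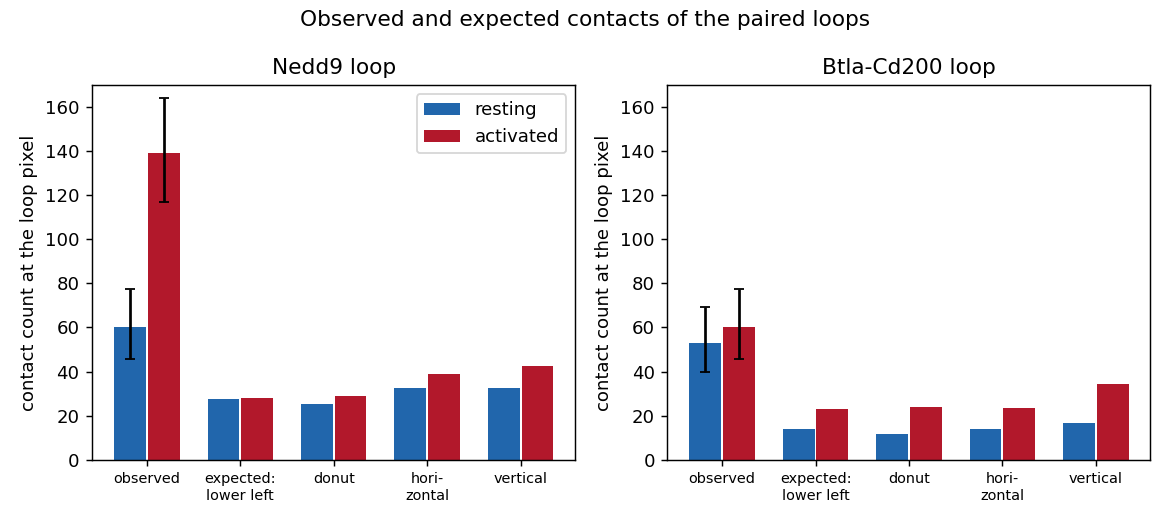
Contact counts at the pixel of the Nedd9 loop (left) and of the Btla-Cd200 loop (right), resting in blue and activated in red: the observed count with its exact 95% Poisson interval and the 4 expected counts, which have no error bar. At Nedd9 the observed bars stand at 60 and 139 over expected counts 1.02 to 1.30 times as high in activated cells, and at Btla-Cd200 the observed bars stand at 53 and 60 over expected counts 1.67 to 2.04 times as high.

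A ratio of strengths past 1.5-fold was uncommon among pairs. With the donut background 4.04% of the 1212 pairs were higher in activated cells by more than that, among them the Nedd9 loop, and 1.82% were lower by more than that, among them the Btla-Cd200 loop. Past 1.5-fold in 1 direction against all 4 backgrounds were 0.825% of pairs on the higher side, which included the Nedd9 loop. On the lower side it was 0.33%, and the Btla-Cd200 loop was not among them, because it passed with 2 of the 4 backgrounds. Since the regions were selected on these ratios, the shares set the scale and support nothing. Over all pairs the median log2 ratio was 0.05 with the donut, -0.03 with the lower left, and 0.02 with the horizontal and the vertical background.

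**Figure D3:**
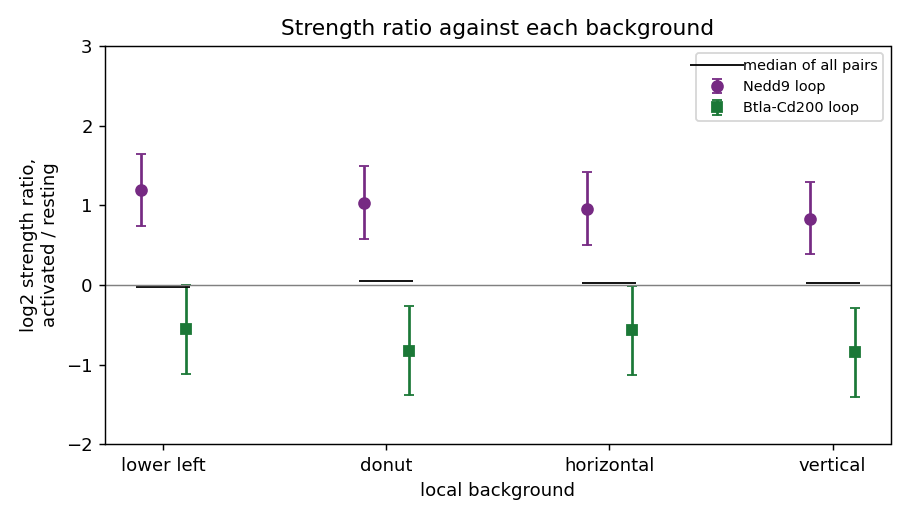
Log2 ratio of observed over expected count, activated over resting (y axis), for the Nedd9 loop (circles) and the Btla-Cd200 loop (squares) against each local background (x axis), with exact 95% intervals for counting error; black dashes are the medians of all 1212 pairs. The Nedd9 loop lies between 0.83 and 1.19 and the Btla-Cd200 loop between -0.85 and -0.56.

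In both pairs, observed and expected counts departed from the median expected ratio of all pairs in opposite directions. Donut-expected counts over the 1212 pairs were 1.55 times as high in activated cells in the median, and observed counts 1.60 times. Over the 341 pairs of 150 to 350 kb outside chromosome Y, the lengths nearest to these loops, donut-expected counts were 1.48 times as high. The value of 1.55 stands here for the depth ratio of the maps. It was not checked against library totals, and depth cannot be told apart in it from changes in local background. The observed count of the Nedd9 loop was 2.32 times as high in activated cells (1.70 to 3.19), or 1.49 times (1.10 to 2.06) once divided by 1.55. Its donut-expected count was 1.14 times as high, or 0.733 of the median ratio, so observed contacts stood above and expected contacts below the median of all pairs. At the Btla-Cd200 loop the observed count was 1.13 times as high in activated cells (0.769 to 1.67), or 0.729 (0.496 to 1.08) once divided by 1.55, an interval that includes 1. Its donut-expected count was 2.01 times as high, or 1.30 times the median ratio. The expected counts were 1.67 times as high with the lower left, 1.68 with the horizontal and 2.04 with the vertical background. In this pair the activated pixel joins sites 25 kb closer together than the resting pixel, and expected counts depend on distance. The part of this shift in the ratio was not tested.

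Taken singly, the observed and expected ratios of both loops were exceeded by other pairs. A higher ratio of observed counts than that of the Nedd9 loop was found for 105 pairs, and a lower ratio of expected counts for 160. A lower ratio of observed counts than that of the Btla-Cd200 loop was found for 136 pairs, and a higher ratio of expected counts for 188. Among the 341 pairs of 150 to 350 kb, the middle 80% of observed ratios ran from 1.13 to 2.28 and of expected ratios from 1.07 to 2.24. The observed ratio of the Nedd9 loop, 2.32, lay above that range and that of the Btla-Cd200 loop, 1.13, at its lower bound, while both expected ratios lay inside.

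**Figure D4:**
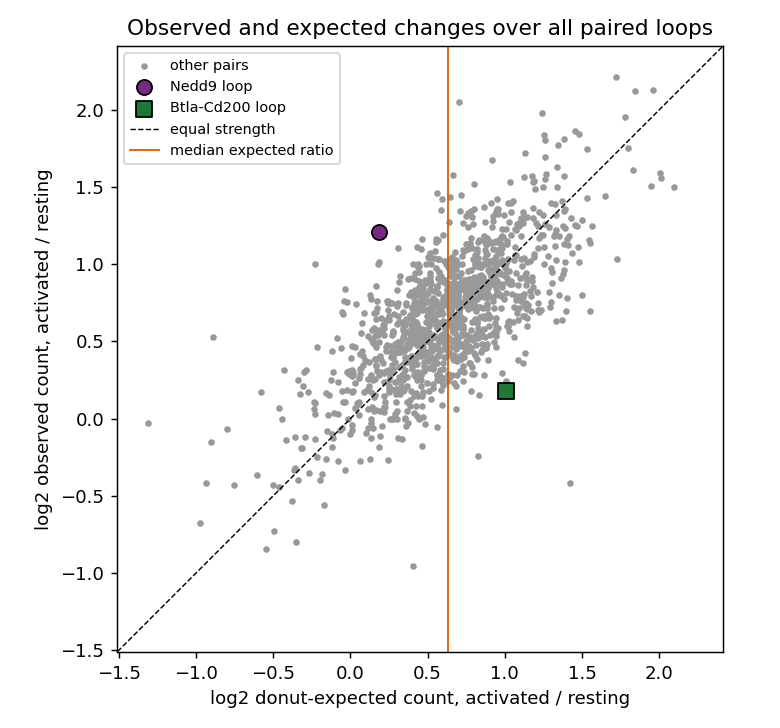
Each point is 1 of the 1212 paired loops, with the log2 ratio (activated over resting) of its donut-expected count on the x axis and of its observed count on the y axis; on the dashed line strength is equal in both states, and the vertical line is the median expected ratio of 1.55. The Nedd9 loop (circle) lies above the dashed line and left of the vertical line, the Btla-Cd200 loop (square) below the dashed line and right of the vertical line.

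Both paired loops had their highest q-value with a strip background in both states, as did most loops of the regions. It was far higher in the state with the weaker loop. In the authors' deposited table the Nedd9 loop of resting cells had q-values of 0.0676 against the horizontal and 0.0655 against the vertical background, where the highest in the resting list were 0.0939 and 0.0942, but 0.000719 against the donut and 0.000200 against the lower left one. In the authors' deposited table of activated cells its highest q-value was 6.2e-21. For the Btla-Cd200 loop of activated cells the authors' deposited table gave a q-value of 0.0824 against the vertical background, where the highest in the activated list was 0.0988, but 1.5e-06 against the donut, 1.57e-06 against the lower left and 3.29e-06 against the horizontal one. In the authors' deposited table of resting cells its highest q-value was 4.36e-06. A q-value over 0.01 against at least 1 background was found for 34.5% of resting and 25.8% of activated loops. The Nedd9 loop was merged from 8 enriched pixels in resting and 15 in activated cells. The Btla-Cd200 loop was a single pixel in resting cells, as were 15.1% of resting loops, and 3 pixels in activated cells.

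Around Nedd9, loops of activated cells formed a chain with shared anchors, of which resting cells had a part. The anchor at 41375001 to 41385000, the left end of the Nedd9 loop, carried 1 loop in resting and 3 in activated cells. The anchor at 41660001 to 41680000, its right end, also carried 1 and 3. Inside the Nedd9 loop of activated cells, a loop from 41380001 to 41585000 (51 contacts, strength 2.48) and one from 41580001 to 41665000 (98 contacts, 2.34) lay end to end. The first of these spanned about the length of Nedd9 as placed above. Outside, a loop from 41675001 to 41735000 (88 contacts, 2.70) continued the chain, and one from 41375001 to 41735000 (61 contacts, 3.03) enclosed it. All of these were weaker than the Nedd9 loop itself in activated cells.

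The second resting loop of the Nedd9 region ran from 41590001 to 41640000 and rested on 62 contacts at a strength of 1.84. It was among the weakest of its list, where 2.36% of loops were weaker and the lowest strength was 1.75. The closest activated loop was the one from 41580001 to 41665000, which began 10 kb lower and ended 25 kb higher, beyond the tolerance of 20 kb. Set against it, the log2 ratio of strengths was 0.34 (interval -0.13 to 0.83), which includes 0. The anchor at 41580001 to 41595000, at about the upper end of Nedd9, was thus in use in both states.

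Further out in the Nedd9 region, 4 loops were in the activated list alone. The strongest of the region without a partner ran from 40940001 to 41335000, with 30 contacts at a strength of 4.39 over an expected count of 6.83, and it shared its right anchor with a loop from 41180001 to 41335000 (59 contacts, 3.20). The longest ran from 41745001 to 42400000, 650 kb, with 49 contacts (3.01), and its right anchor lay outside the region. A loop from 41845001 to 42010000 had 51 contacts (2.49). None of these joined an anchor of the Nedd9 loop.

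In the Btla-Cd200 region, 5 activated loops had no resting partner, and 2 of them used an end of the resting Btla-Cd200 loop. A loop from 45195001 to 45635000 started at exactly the left pixel of the resting loop and reached 435 kb to the right, past Cd200, with 56 contacts at a strength of 4.10. It was stronger than the paired loop of activated cells (2.51), and 87.0% of activated loops were weaker than it. A loop from 45330001 to 45420000 (47 contacts, 2.70) ended at the anchor near Cd200. Of the 9 anchors of the region, 2 were in use in resting cells, and both were also in use in activated cells. The left one was used in activated cells by the loop to 45635000. With only starts within 10 kb merged, the paired loop of activated cells began at a separate anchor, at 45215001, which no resting loop used. The pairing of loops allowed 20 kb, and by it the same left pixels counted as partners. The left centres of the paired loops lay 6.67 kb apart. Whether their left anchors are separate therefore depends on the rule.

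The other 3 loops of the Btla-Cd200 region lay further left and were nearly parallel. They ran from 44745001 to 45030000 (44 contacts, strength 2.88), from 44760001 to 45090000 (71 contacts, 2.79) and from 44770001 to 45020000 (47 contacts, 2.55). Their left anchors lay within 25 kb of each other. They are therefore not independent of each other, and none touched an anchor of the Btla-Cd200 loop. RefSeq's order places the genes with Cd200r names on this side of Btla. Whether these anchors lie at those genes was not tested, for want of an mm9 annotation.

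Unpaired activated loops of both regions were like the rest of their class in strength and longer. The 13 loops had strengths from 2.34 to 4.39 (median 2.79), against a median of 2.80 over all 3103 unpaired activated loops. Their median length was 245 kb against 155 kb, and their median observed count 51 against 59. Divided by the depth ratio of 1.55, their observed counts would run from 19.3 to 63.1 (median 32.9). The resting list has a lowest observed count of 19 and a median of 61. The part of depth in the missing resting partners was not tested.

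The number of loops was higher in activated cells in both regions, as it was in the lists as a whole. The ratio was 4.5 in the Nedd9 region (exact interval 0.931 to 42.8) and 6.0 in the Btla-Cd200 region (0.728 to 276.0). Over the whole lists it was 2.31. These intervals cover counting error of loops taken as independent, which overlapping loops are not, and the regions were selected from the same lists, so the ratios are descriptions. When the genome was cut into 2197 tiles of the same 1.2 Mb, 3.37% held at least 9 activated loops and 13.6% at least 6, while 22.7% held at least 2 resting loops and 40.6% at least 1. Of the 209 tiles with 2 resting loops, as in the Nedd9 region, 6 held at least 9 activated loops (median 4). Of the 394 tiles with 1 resting loop, as in the Btla-Cd200 region, 50 held at least 6 (median 3). Few loops lay just beyond the regions' edges: the nearest excluded activated loop began 295 kb above the Nedd9 region (strength 3.23), and the nearest included one lay 40 kb inside (4.39). At the Btla-Cd200 region these distances were 645 kb (2.28) and 45 kb (2.88). The nearest excluded resting loops were 1205 kb (2.08) and 3865 kb (2.21) away, against included ones 435 kb (2.37) and 490 kb (4.45) inside.

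The pairs elsewhere with the most similar combination of observed and expected ratios are given for orientation. Since the loops were selected for ratios that few pairs exceed, milder ratios at these neighbours are largely set by the choice. For the Nedd9 loop these were the pairs at chromosome 7 from 129390001 to 129600000, with 59 and 127 contacts and strengths of 2.15 and 3.74, and chromosome 15 from 80095001 to 80530000, with 58 and 117 contacts and strengths of 2.36 and 4.19. The third was chromosome 15 from 55135001 to 55390000, with 35 and 70 contacts and strengths of 3.56 and 6.27. Nearest to the Btla-Cd200 loop were chromosome 10 from 111410001 to 111545000, with 40 and 49 contacts and strengths of 6.20 and 3.84, and chromosome 19 from 10065001 to 10110000, with 87 and 106 contacts and strengths of 2.83 and 1.89. The third was chromosome 4 from 149025001 to 149085000, with 127 and 163 contacts and strengths of 2.99 and 1.77. The first value is that of resting cells in each case. The loops on chromosomes 19 and 4 were shorter, 40 and 55 kb, than the Btla-Cd200 loop.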

How the data were processed

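Per the submitters' processing notes, Hi-C reads were processed with BWA and Juicer on mm9; versions and loop caller: not given in the sources used here. Each deposited list gives, per the file headers, each loop's observed contact count (raw), 4 expected counts, a q-value for each, and the count of merged pixels, all at 5 kb. There is 1 deposited list per state, so libraries of a state stand pooled in it. Library totals were not used here.

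Lists were read with pandas 2.3.3 in Python 3.11.15. Loops of the lists were paired one to one when anchors, widened by 10 kb on either side in both lists, overlapped by at least 1 bp at both ends, smallest summed distance first. Positions are 1-based, and length is the distance between anchor starts. Where anchors are counted, starts within 10 kb of the next one were merged. Intervals (95%) are exact Poisson for counts and exact conditional binomial for ratios (scipy 1.17.1). Pairing and ratios were tested on simulated data, with anchors shifted by at most 10 kb and a single depth ratio for all loops. Every simulated activated loop had a true partner. The simulation therefore does not cover a shift of 20 kb, as in the Btla-Cd200 pair, or activated loops without a partner. Of the 258 samples, 59 further Hi-C libraries and 165 of other kinds were not analysed here. For loops of 1 state, the 3 strongest and the longest per region were to be named (all where 5 or fewer); the others are given to account for every loop. The most similar pairs were the 3 nearest in log2 observed and log2 donut-expected ratio, outside both regions and chromosome Y. Lists of Cas family and co-signalling genes were not located, since no mm9 annotation was used. The E-box and GC box were chosen after the loops were seen. Members and lists were chosen with earlier results of these data known. Alternatives covered backgrounds, depth, partners, tolerance, q-value and count limits.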

Additional observations from a re-analysis of the deposited data

How the results depend on the processing

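Of 34 alternatives, 31 stayed within the counting interval of the value reported, or within 1.5 times a count of loops. No log2 ratio changed sign, and a count of loops cannot. With 1 pair per region, medians over pairs against the other backgrounds repeat the values of the single loops, so the tally counts them again. Settings that left no pair are not in the tally. The log2 strength ratio of the Nedd9 loop (1.03) was 0.58 when observed counts were divided by the genome-wide depth ratio in place of the loop's own background, just under its interval, and 0.36 against the next activated loop sharing an anchor, from 41375001 to 41735000. With all 4 q-values at most 0.01, the count of resting loops in the Nedd9 region went from 2 to 0. Neither paired loop could then be compared, nor with anchors not widened, where 0 pairs were left in each region. Without the chosen loop no pair was left either. With anchors widened by 25 kb, 2 Nedd9 pairs had a median of 0.68. The Btla-Cd200 ratio (-0.83) was -0.46 by genome-wide depth and, by the depth of pairs of 150 to 350 kb, chosen after seeing the data, -0.39. For the Nedd9 loop the latter was 0.64. Against the nearest other activated loop sharing an anchor, from 45330001 to 45420000, the Btla-Cd200 ratio was -0.72. The loop from 45195001 to 45635000, which shares the left pixel, was not used as an alternative. Its strength was 4.10 in activated cells against 4.45 for the resting loop, so with this partner little of the difference between states would remain. This comparison is not in the tally. No paired analysis was possible because each state has 1 pooled list. What depth limits in the calling of loops was not tested. The limit of at least 30 observed contacts could not change the counts, since no loop of the regions had fewer than 30.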
